A study of Saccharomyces cerevisiae with 328 samples.

Results

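The strains examined here were 3 of 328 single gene deletions of budding yeast, Saccharomyces cerevisiae, and were chosen because the gene named in their label encodes an enzyme of nucleotide metabolism. They were labelled as deletions of YJL130C (URA2), YNL141W (AAH1) and YML035C (AMD1), and all other deletions of the series served as the comparison. The study's title concerns how genes of protein synthesis and of amino acid synthesis follow growth rate. Each strain had 1 polyA RNA library, sequenced on an Illumina HiSeq for 50 cycles from exponentially growing cells that had divided 2 to 3 times after dilution. The values are log2 ratios, with the deletion strain set against wild type. Each label names 1 deleted open reading frame and no treatment, and the sources used here give neither the parental genotype nor the medium. All 6 a-cell genes examined had values and all 4 alpha-cell genes were empty in the 328 strains. LEU2 and MET17 were also empty in all of them, and URA3 had a value in 17.

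Cells make pyrimidines and purines from small precursors, or recover them from bases and nucleosides by salvage. URA2 encodes the enzyme of the first steps of pyrimidine synthesis, carbamoyl phosphate synthetase and aspartate transcarbamylase, and is inhibited by the end product UTP. The activator Ppr1 turns on the later URA genes when the intermediates dihydroorotate and orotate are present. AAH1 encodes adenine deaminase, which turns adenine into hypoxanthine. AMD1 encodes AMP deaminase, which turns AMP into IMP, the branch point from which IMP dehydrogenase (IMD2, IMD3, IMD4) leads to GMP. The activators Bas1 and Pho2 turn on ADE genes and genes of one-carbon metabolism when intermediates of purine synthesis accumulate, and Bas1 and Gcn4 recognise the same core sequence.

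Upstream sequences are shown first for genes described below whose upstream stretch holds the known core motif of an activator, with that motif in capitals. Each stretch holds 150 bases, starting 250 bases before the open reading frame and read 5′ to 3′ on the strand of the gene, from the RefSeq R64 genome. The Ppr1 motif, CGG and CCG separated by any 6 bases, was present on either strand in the 250 bases before 3 of 10 pyrimidine synthesis genes (URA4, URA1 and URA3), against 1.05% of 6020 promoters of the same length. URA1 holds a pair of matches and URA4 a single one.
URA1 (chrXI:24965-25114, + strand): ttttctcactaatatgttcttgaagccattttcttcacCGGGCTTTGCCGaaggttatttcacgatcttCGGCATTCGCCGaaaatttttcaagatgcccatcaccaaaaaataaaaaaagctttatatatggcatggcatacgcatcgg
URA4 (chrXII:963535-963684, + strand): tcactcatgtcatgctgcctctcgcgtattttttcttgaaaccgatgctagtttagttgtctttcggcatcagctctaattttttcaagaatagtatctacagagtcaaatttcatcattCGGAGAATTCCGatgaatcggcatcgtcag

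The motif TGACTC, the core shared by Bas1 and Gcn4 sites, was present in 6 of 9 genes of purine synthesis, 9 of 15 of one-carbon metabolism, 6 of 7 of histidine synthesis and 6 of 9 of arginine synthesis, against 6.23% of all promoters. It is marked for ADE17, SHM2, GCV2 and HIS4, whose values in the strains labelled AAH1 and AMD1 are described below. These do not stand for all genes with the motif. In the AAH1 strain such genes lay on both sides of the other deletions, with ADE3 at 0.73 and HIS3 at 0.59, but HIS6 at -1.01 and GCV1 at -0.97. In GCV2 the match lies on the other strand and reads GAGTCA. The motif had 0 matches in the 250 bases before ARG1 and IMD2, which were far above the other deletions in the library labelled AMD1.
ADE17 (chrXIII:509381-509530, − strand): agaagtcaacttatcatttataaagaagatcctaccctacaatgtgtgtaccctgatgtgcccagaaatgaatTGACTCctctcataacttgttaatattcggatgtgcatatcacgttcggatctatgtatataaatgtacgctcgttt
SHM2 (chrXII:259502-259651, − strand): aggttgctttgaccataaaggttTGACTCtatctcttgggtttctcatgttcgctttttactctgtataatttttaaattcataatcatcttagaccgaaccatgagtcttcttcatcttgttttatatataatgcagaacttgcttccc
GCV2 (chrXIII:637250-637399, + strand): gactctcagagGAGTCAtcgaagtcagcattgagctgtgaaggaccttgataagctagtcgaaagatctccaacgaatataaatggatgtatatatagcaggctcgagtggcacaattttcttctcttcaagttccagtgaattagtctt
HIS4 (chrIII:68434-68583, − strand): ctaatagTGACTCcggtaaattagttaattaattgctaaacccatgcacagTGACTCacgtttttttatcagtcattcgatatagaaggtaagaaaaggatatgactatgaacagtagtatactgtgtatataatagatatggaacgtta

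The motif CACGTG, a palindrome bound by Pho4 and by the sulfur regulator Cbf1, was present in 6 of 22 sulfate and methionine genes and 4 of 14 phosphate genes, against 2.72% of all promoters. It is marked for MET16 and MET10, whose values were far from the other deletions in the AAH1 strain. MET3 and VTC3, which were also far above the others there, had 0 matches in this window. A match is a description of the letters and shows no binding, and the lack of one says only that these letters are not in the window.
MET16 (chrXVI:877733-877882, − strand): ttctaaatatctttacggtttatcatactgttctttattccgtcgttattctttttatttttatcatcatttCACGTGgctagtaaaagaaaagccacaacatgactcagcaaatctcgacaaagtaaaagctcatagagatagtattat
MET10 (chrVI:213062-213211, + strand): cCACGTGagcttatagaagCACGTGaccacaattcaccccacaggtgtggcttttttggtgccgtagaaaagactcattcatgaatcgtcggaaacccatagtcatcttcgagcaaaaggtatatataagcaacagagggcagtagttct

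The deleted gene itself was read first. URA2 (chromosome X, 165723 to 172367) stood at -1.24 in its own deletion strain, against a mean of -0.07 ± 0.31 (SD) over the other deletions, a difference of -1.16 ± 0.31 (SE). It was the second lowest of 328 strains, after the CSF1 deletion at -1.40, and the lowest of the 73 libraries of its batch. Batches here are 4 groups of libraries found from the data, since the labels name none. AAH1 (chromosome XIV, 359596 to 360639) stood at -2.24 in its own strain, against -0.43 ± 0.39 (SD) over the others, a difference of -1.81 ± 0.39 (SE). The next lowest strain was the VPS29 deletion at -1.43, so AAH1 was lowest in its own deletion and no other strain overlapped it. AAH1 fell in its strain with an adjusted p of 0.0206 (limma, Benjamini-Hochberg), and it was the only gene that passed in any of the 3 strains. Both URA2 and AAH1 thus kept a measured value in the strain labelled as lacking the gene. The source of that signal was not tested. In a culture, fewer cells with an mRNA and less of it per cell cannot be told apart.

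AMD1 (chromosome XIII, 206428 to 208860) was not low in the library labelled as its deletion. It stood at 0.03, against -0.50 ± 0.40 (SD) in the others, a difference of 0.52 that ranked 30th from the highest of 327 strains. No 50-base stretch of the coding sequence of AMD1 occurs elsewhere in the genome. Among strains in which the deleted gene could be read, its median difference from the others was -1.20. The deleted gene was the lowest of all strains in 70 of these. In 33 (15.9%) it was above the mean of the others, and in 6, with this library included, at least as far above as here. AMD1 mRNA thus goes against the label, although mRNA of the deleted gene was a weak check of labels among these strains. Strains whose deleted gene was empty were not counted, so the check is not described for the whole series. The values are given below as those of the library labelled AMD1. Within 5 open reading frames of the deleted gene, neighbours ran from -0.33 (MRS3) to 0.30 (AIM23) at URA2 and from -0.36 (SRC1) to 0.28 (USA1) at AMD1. At AAH1 they ran from -0.53 (MFA2) to 1.14 (THO2), and 2 of 7 were at least 2-fold away, where 3.05% of all genes were. The cause was not tested.

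With 1 library per strain, the limma p says whether a library is unlike the other deletions and not whether a second library of the strain would repeat it. By adjusted p, 0 of 4411 genes passed in the URA2 strain, with 2.88% at an unadjusted p under 0.05. In the AAH1 strain 1 of 4485 genes (0.0223%) passed, with 2.27% at the unadjusted level. For the library labelled AMD1 it was 0 of 4433, with 2.98%. The genes described below, other than AAH1, did not pass this test. They are given by their values, by a difference of at least 2-fold from the mean of the other deletions, and by rank among the strains. Where a gene stood at a value, that value and those set against it are log2 ratios to wild type. Other values of single genes are differences from the mean of the other deletions, unless a batch or a direct contrast is named.

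At least 2-fold differences were found for 120 genes (2.72%) in the URA2 strain, 36 higher (0.816%) and 84 lower (1.9%). In the AAH1 strain 3.05% of genes were this far away, 2.5% higher and 25 genes lower (0.557%). In the library labelled AMD1 it was 3.27%, with 74 genes higher (1.67%) and 71 lower (1.6%). Over the other deletions the number ran from 23 to 1194, and by this number the strains ranked in the middle of the series. The URA2 strain held the highest value of all strains for 2 genes (0.0453%) and the lowest for 5 (0.113%). The AAH1 strain was the highest for 4 genes (0.0892%) and the lowest for 1 (0.0223%), and the library labelled AMD1 the highest for 4 (0.0902%) and the lowest for 0. Direction was uneven in the AAH1 strain, where the median over all genes tested was 0.17 above the other deletions, against 0.02 and 0.06 in the strains labelled URA2 and AMD1. Relative to the strains of their own batch, 73 genes were 2-fold away in the URA2 strain, 61 in the AAH1 strain and 2.98% of genes in the library labelled AMD1.

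**Figure D1:**
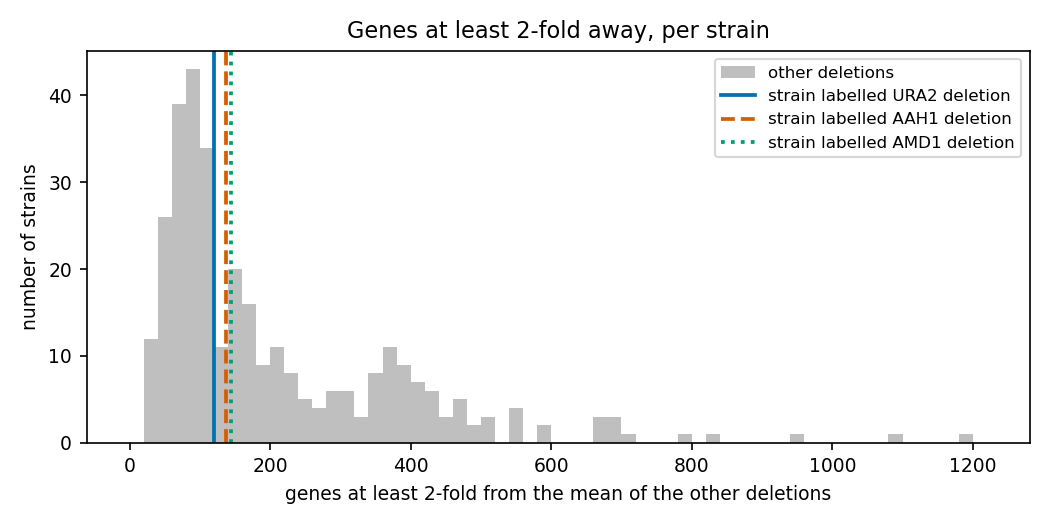
Number of genes at least 2-fold from the mean of the other deletions (x axis) against the number of strains (y axis, grey bars for the other deletions). The lines for the strains labelled URA2 (120 genes), AAH1 and AMD1 stand close together within the main body of the distribution, whose range is 23 to 1194.

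In the URA2 strain, both measured genes for the steps that directly follow Ura2 were low. URA1, which encodes dihydroorotate dehydrogenase, stood at -0.83 in the URA2 strain, 0.07 in the AAH1 strain and 0.34 in the library labelled AMD1. The other deletions ran from -0.82 to 1.38 with a median of 0.28, so the URA2 strain was the lowest of 328, by a narrow margin over the RPP2B deletion at -0.82. The difference was -1.16 ± 0.40 (SE; unadjusted limma p 0.00388). Relative to the 73 strains of its batch, URA1 was -1.36 and also the lowest.

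URA4, which encodes dihydroorotase, stood at -0.60 in the URA2 strain, 0.17 in the AAH1 strain and 0.37 in the library labelled AMD1. The others ran from -0.67 to 1.30 with a median of 0.31. It was the fourth lowest of 328 strains, with a difference of -0.89 ± 0.35 (SE; unadjusted limma p 0.0121), and the lowest of 73 within its batch at -0.84. URA1 and URA4 are the genes with the Ppr1 motif shown above that had a value in these strains. URA3, the third such gene, was empty in all 3 strains and had a value in 17 strains of the series.

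The remaining pyrimidine synthesis genes were near the other deletions in the URA2 strain. The difference was 0.06 for URA5, which adds the ribose phosphate, -0.16 for the kinase gene URA6, 0.07 for URA7 and 0.38 for URA8, both encoding CTP synthase, and 0.07 for YNK1, which makes nucleoside triphosphates. URA10, a paralog of URA5, had no value in any strain. Of the 7 members tested besides URA2, 0 passed in either direction, 1 was at least 2-fold lower, and the median was 0.06 against 0.02 over all genes tested; the mean was -0.23. The low values were those of URA1 and URA4, and the other 5 members ran from -0.16 to 0.38. Over all genes tested, 1.9% were at least 2-fold lower.

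Among genes that recover or take up pyrimidines, 5 of 7 were above the other deletions and none by 2-fold. FUR4, the uracil permease, was at 0.17 and FUR1, uracil phosphoribosyltransferase, at 0.07. The uridine permease gene FUI1 was at -0.20, uridine kinase (URK1) at 0.37, uridine nucleosidase (URH1) at 0.14 and cytosine deaminase (FCY1) at -0.24. The largest was DCD1, dCMP deaminase, at 0.79, and at 0.50 relative to the batch. Of the 7 tested 0 passed. The list median was 0.14, the 82nd highest of 328 strains, and 0.29 relative to the batch, the fourth highest of 73.

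Ura2 shares its substrate carbamoyl phosphate with arginine synthesis. CPA1, of the arginine pathway, was at 0.25 in the URA2 strain, with ARG8 at 1.27, ARG4 at -0.62 and ARG5_6 at -0.78. Of 8 arginine genes, 1 was at least 2-fold higher, where 0.816% of all genes were, and the median was 0.17, the 81st highest of 328 strains. Purine synthesis genes ran from -0.15 to 0.22 over all 9 members, close to the mean of the other deletions.

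**Figure D2:**
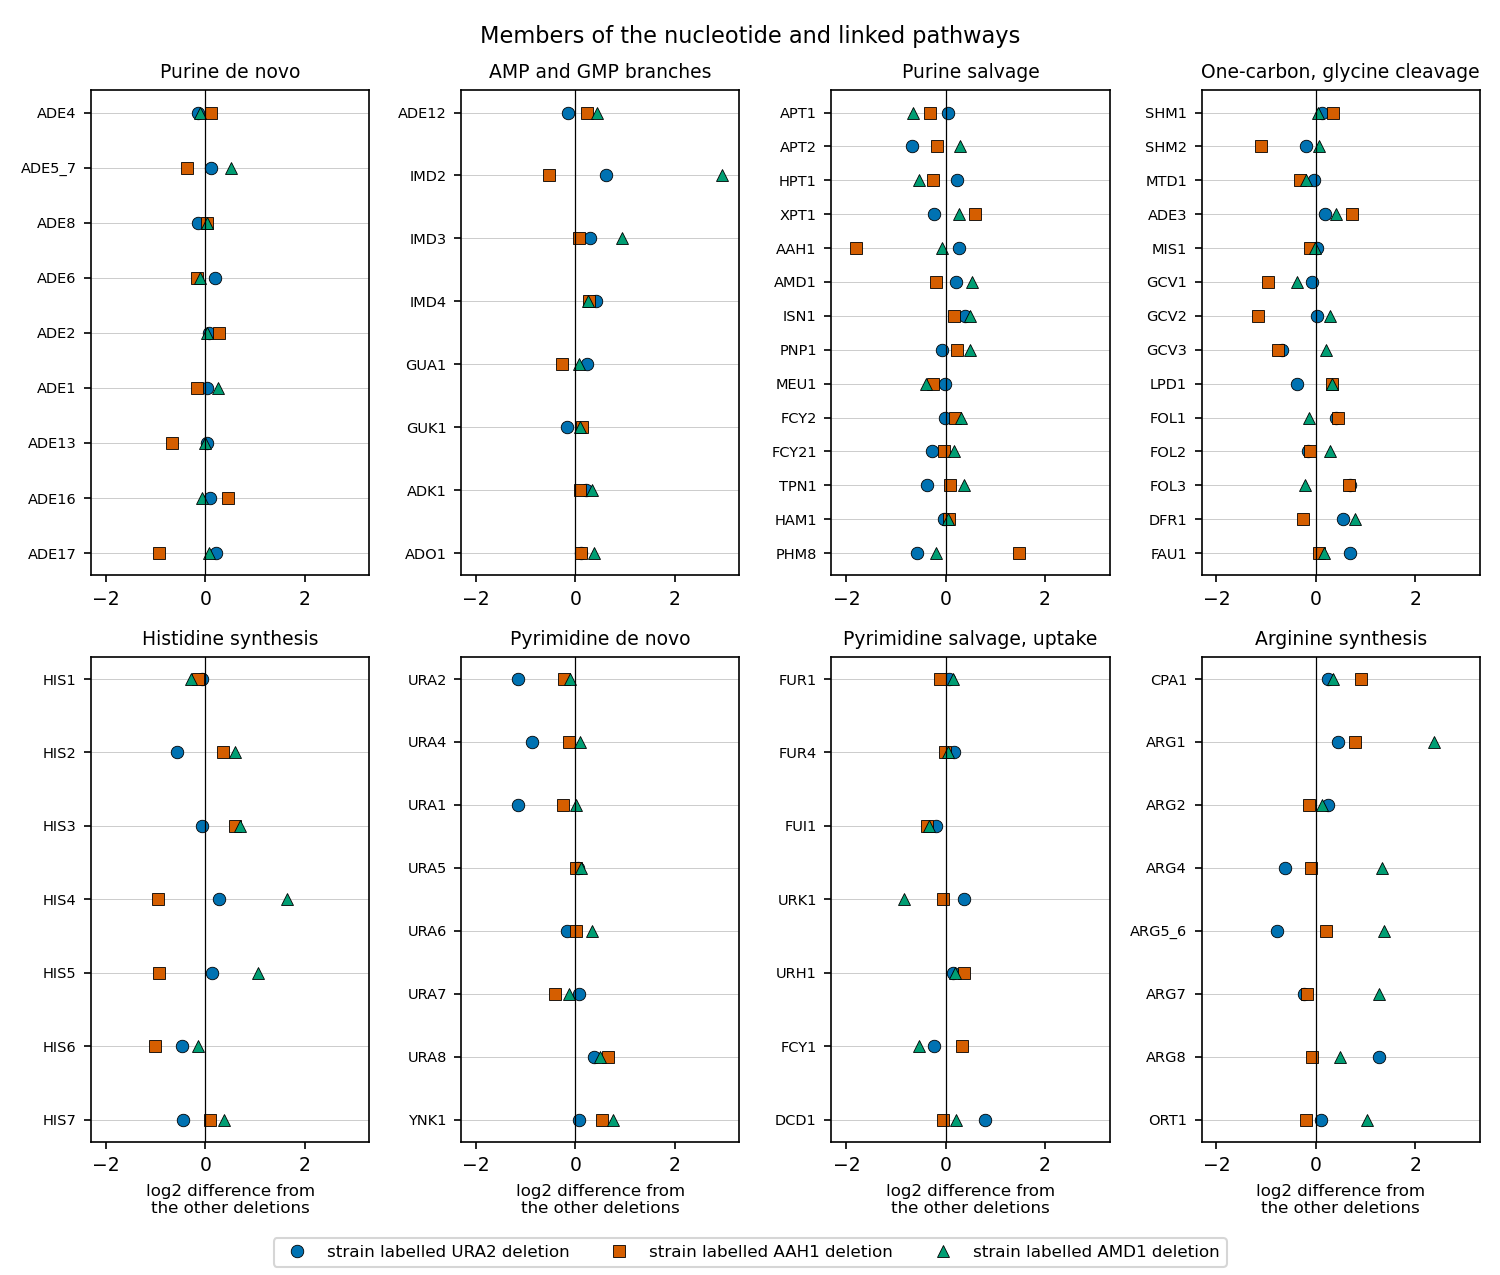
Difference of each member gene from the mean of the other deletions (x axis, log2) in the strains labelled URA2 (circle), AAH1 (square) and AMD1 (triangle), 1 library each, in 8 pathways. Besides the deleted gene, URA1 and ARG8 lie at least 2-fold away in the URA2 strain, and SHM2, GCV2, HIS6 and PHM8 in the AAH1 strain. In the library labelled AMD1, IMD2, HIS4, HIS5 and 5 of 8 arginine genes (ARG1, ARG4, ARG5_6, ARG7 and ORT1) do so.

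The genes farthest from the other deletions in the URA2 strain were mostly outside nucleotide metabolism, and were chosen after their values were seen. Lowest were SSU1, a sulfite pump, at -1.88, INM2, inositol monophosphatase, at -1.78, and YND1, a Golgi apyrase that hydrolyses nucleoside di- and triphosphates, at -1.68. YND1 at a log2 ratio of -2.37 was the lowest of 328 strains, and -1.44 relative to its batch. RTS1, a regulatory subunit of protein phosphatase 2A, was the lowest of 326 strains at a difference of -1.44, and HAP3, a subunit of the activator of respiratory genes, the second lowest of 326 at -1.43. The splicing factor gene PRP21 was at -1.64.

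Among the highest in the URA2 strain were TAR1 at 2.18 and YLR154C-G at 2.22, both of which lie in the ribosomal DNA repeats. These open reading frames vary widely between batches, and relative to the batch mean they were at 0.74 and 1.07. The condensin subunit gene BRN1 was at 1.87, the deacetylase gene HOS2 at 1.82 (1.12 relative to the batch), the copper transporter gene CTR1 at 1.69 (the second highest of the strains with a value) and the agglutinin gene AGA1 at 1.56. The 6 a-cell genes had a median of 0.63, the ninth highest of 328 strains and 0.28 relative to the batch; their part in these results was not tested.

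In the AAH1 strain, genes of sulfur and phosphate metabolism lay farther above the other deletions than any other list examined. All 17 sulfate and methionine genes tested lay above the mean of the other deletions, 9 of them by at least 2-fold, where 2.5% of all genes did so. Their median was 1.19, against 0.17 over all genes tested, and only the YJL175W deletion had a higher one (1.47). Relative to its batch the median was 1.36, the highest of 79 strains.

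MET16, which encodes the reductase for activated sulfate, stood at 2.16 in the AAH1 strain, -0.52 in the URA2 strain and 0.38 in the library labelled AMD1. The other deletions ran from -1.96 to 2.90 with a median of -0.06. It was the second highest of 327 strains, with a difference of 2.21 ± 0.58 (SE; adjusted limma p 0.251). Relative to the batch it was 2.06.

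The other genes of sulfate assimilation named here were high with it, while MET17 had no value in any strain. ATP sulfurylase (MET3) was at a difference of 1.98, the kinase MET14 at 1.77, the sulfite reductase subunits MET10 and MET5 at 1.88 and 1.58, and MET1, which makes their sirohaem cofactor, at 1.63. MET28, which encodes a transcription factor of the pathway, was at 0.002 and so did not share the shift. Downstream, the S-adenosylmethionine synthetase genes SAM2 and SAM1 were at 1.28 and 0.50 and the permease gene MMP1 at 1.34.

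In the transsulfuration route, cystathionine beta-synthase (CYS4) stood at 1.46 in the AAH1 strain, 0.68 in the URA2 strain and 0.10 in the library labelled AMD1. The others ran from -0.59 to 1.40, so no strain was above the AAH1 strain. The difference was 1.19 ± 0.36 (SE; unadjusted limma p 0.00113). Cystathionine gamma-lyase (CYS3) was at 0.95, the fourth highest of 328.

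Methionine synthase (MET6), which takes its methyl group from folate, was at 0.94 ± 0.83 (SE) relative to all other deletions, with an adjusted limma p of 0.996. The spread of MET6 between batches was wide. With batch as a term of the fit its difference was 1.82 ± 0.37 (SE) and it passed, with an adjusted p of 0.00266, and it was the highest of the 79 strains of its batch. Whether MET6 passed thus depended on how batches were treated. The batches were found from the genes with a value in every strain, MET6 among them. The smaller SE with batch as a term is therefore not independent of MET6 itself, and that p is no separate support for it.

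Phosphate genes were also high. VTC3, a subunit of the vacuolar polyphosphate polymerase, stood at 1.93 in the AAH1 strain, 0.45 in the URA2 strain and 0.15 in the library labelled AMD1. The others ran from -1.61 to 3.25, and the AAH1 strain was the seventh highest of 328, with a difference of 1.93 ± 0.56 (SE; adjusted limma p 0.610). Further subunits were at 1.59 (VTC1), 0.95 (VTC4) and 0.84 (VTC2), and PHO81, the inhibitor of the Pho80-Pho85 kinase, at 1.27. All 7 phosphate genes tested were above the others, 3 by at least 2-fold, where 2.5% of all genes were. Their median of 0.95, against 0.17 over all genes tested, was the seventh highest of the series. For comparison, the deletion of PHO80, a repressor of this regulon, had a median of 1.90. PHM8, a phosphate-regulated nucleotidase that removes phosphate from AMP and other nucleotides, was at 1.48, the fourth highest of the strains with a value.

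Genes of one-carbon metabolism ran both ways in the AAH1 strain, with 6 of 14 members above the other deletions and 8 below. SHM2, the cytosolic serine hydroxymethyltransferase that supplies one-carbon units for purines, stood at -1.47 in the AAH1 strain, -0.57 in the URA2 strain and -0.32 in the library labelled AMD1. The others ran from -2.38 to 0.61 with a median of -0.34; the AAH1 strain was the sixth lowest, with a difference of -1.10 ± 0.42 (SE; unadjusted limma p 0.00999). Relative to its batch it was -0.90, the second lowest of 79.

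Of the glycine cleavage genes, GCV1, GCV2 and GCV3 were low and LPD1, whose subunit is shared with other dehydrogenase complexes, was not. GCV2 stood at -1.01 in the AAH1 strain, 0.19 in the URA2 strain and 0.44 in the library labelled AMD1, and its difference of -1.17 was the seventh lowest of 328. GCV1 was at -0.97 and GCV3 at -0.76, the eighth lowest, while LPD1 was at 0.33, and at 0.083 relative to the batch. ADE3, the trifunctional one-carbon enzyme, was at 0.73, and at 0.31 relative to the batch. The folate synthesis genes FOL3 and FOL1 were at 0.67 and 0.45, and the mitochondrial serine hydroxymethyltransferase gene SHM1 was at 0.34, and at 0.0072 relative to the batch. Of the 14 members, 2 were at least 2-fold lower, where 0.557% of all genes were, and 0 were 2-fold higher. The list median was -0.12, and -0.33 relative to the batch, the second lowest of 79.

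Purine synthesis itself split in the AAH1 strain. ADE17, which with its paralog ADE16 carries out the last steps to IMP, stood at -2.52 in the AAH1 strain, -1.37 in the URA2 strain and -1.52 in the library labelled AMD1. Its difference of -0.93 was the eighth lowest of 326 strains. ADE13, adenylosuccinate lyase, was at -0.68, the 19th lowest, and ADE16 at 0.46. Relative to the batch ADE17 was at -0.96, ADE13 at -0.29 and ADE16 at -0.0012, so the distance between ADE13 and ADE16 was smaller there. ADE4, the first enzyme of the pathway, was at 0.12, and ADE1, ADE2, ADE6 and ADE8 were at -0.16, 0.28, -0.17 and 0.03. Of 9 members 0 were at least 2-fold away, where 3.05% of all genes were. The list median was -0.16, against 0.17 over all genes tested, and -0.31 relative to the batch.

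Histidine synthesis, which releases a purine intermediate, had low members as well: HIS6 at -1.01, HIS4 at -0.96 and HIS5 at -0.93. Relative to the batch these were -0.46, -0.66 and -0.85. HIS3 was at 0.59 and HIS2 at 0.35, but at -0.023 and -0.11 relative to the batch. The list median was -0.15, and -0.50 relative to the batch. In purine salvage, the phosphoribosyltransferase genes APT1 and HPT1, which act on adenine and hypoxanthine, were at -0.32 and -0.25, and XPT1, which acts on xanthine, at 0.58. Relative to the batch APT1 was at -0.035, HPT1 at -0.33 and XPT1 at 0.34. The 13 salvage genes tested besides AAH1 had a median of 0.07.

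Stress genes were high in the AAH1 strain. Of 40 tested, 37 were above the other deletions and 13 by at least 2-fold, where 2.5% of all genes were. Their median was 0.77, the 14th highest of 328 strains, and 0.64 relative to the batch. The median over all genes tested was 0.17. HSP26, a small heat shock protein gene, was at 2.46, SPI1 at 1.69, the glycogen branching enzyme gene GLC3 at 1.59, GPH1 at 1.28, HXK1 at 1.35 and TPS1 at 1.11. TDH1, a glyceraldehyde phosphate dehydrogenase gene, was at 2.42; 15.7% of its 50-base windows occur elsewhere in the genome. Ribosomal protein genes of the small subunit had a median of -0.27, the 22nd lowest, but -0.06 relative to the batch.

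Outside these lists, STP4, a zinc finger gene, was the highest of 328 strains at 2.42 above the others. RAD59, a recombination gene, stood at 1.88, against -0.23 in the library labelled AMD1 and no value in the URA2 strain, and was the highest of the strains with a value, with a difference of 2.24 ± 0.55 (SE; adjusted limma p 0.126). The lowest were PMP1, a regulator of the plasma membrane proton pump, at -2.09, but -0.69 relative to its batch, the zinc transporter gene ZRT1 at -1.59, the bud growth gene GIC1 at -1.46 and the bud site gene AXL2 at -1.40. Relative to the batch, ZRT1, GIC1 and AXL2 were at -0.82, -0.38 and -0.65, nearer to the libraries of the same batch than to the series.

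**Figure D3:**
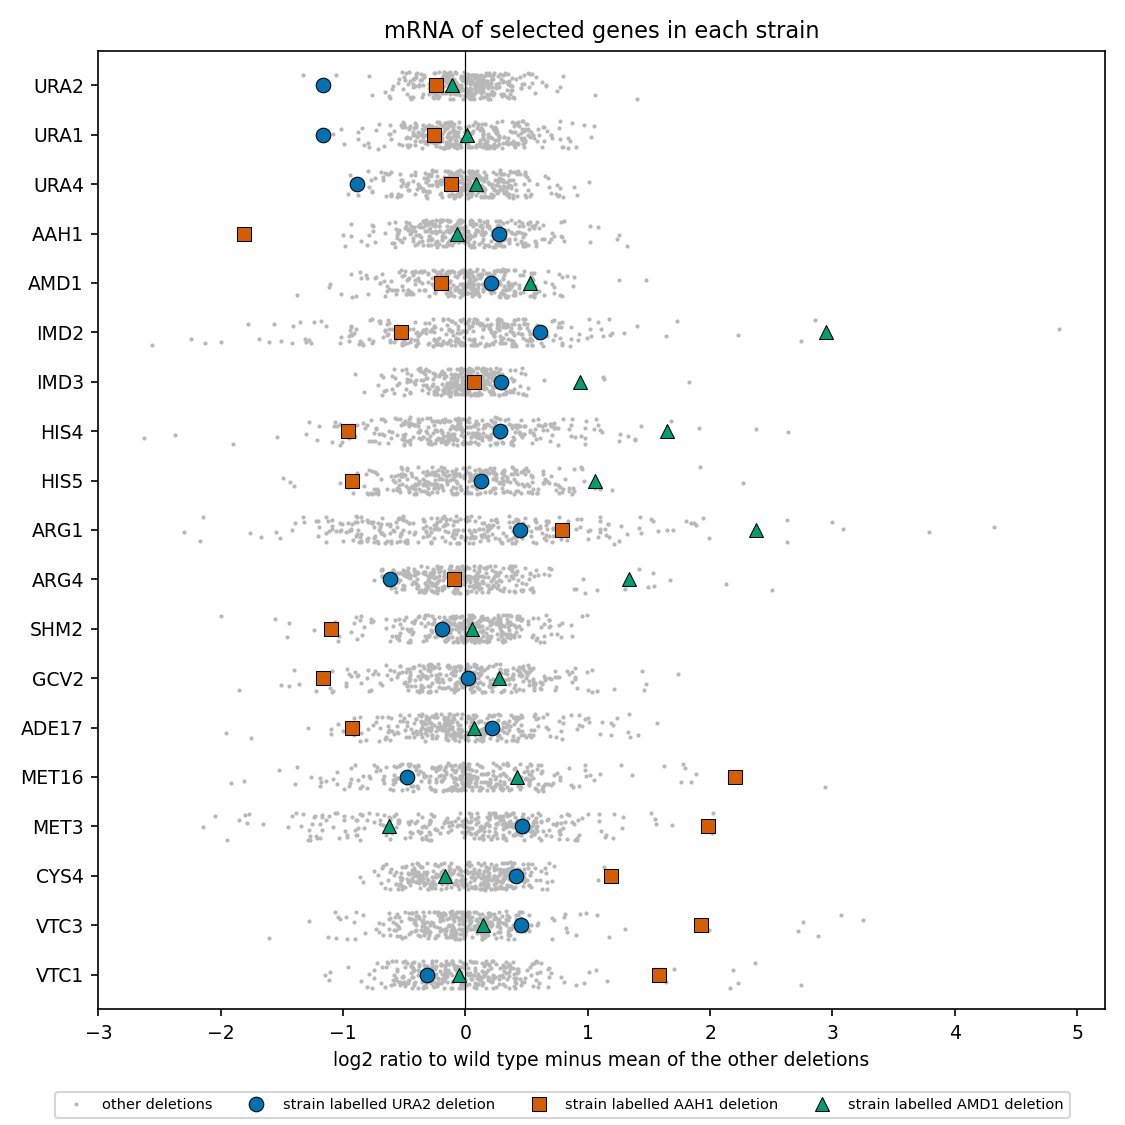
Difference of 19 genes from the mean of the other deletions (x axis, log2) for each of the other deletions (grey dots, jittered) and the strains labelled URA2, AAH1 and AMD1. AAH1 is lowest in its own strain, at -1.81, and AMD1 lies at 0.52 in the library labelled as its deletion.

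The library labelled AMD1 had its largest difference in the guanine branch. IMD2, which encodes IMP dehydrogenase and is known to be induced when guanine nucleotides are scarce, stood at 3.10, against 0.76 in the URA2 strain and -0.37 in the AAH1 strain. The other deletions ran from -2.41 to 5.01 with a median of 0.19. It was the second highest of 328 strains, below the VIP1 deletion at 5.01 and just above the deletions of YNL198C (3.02) and GCR2 (2.90). The difference was 2.94 ± 0.72 (SE; unadjusted limma p 6.06e-05, adjusted 0.268), or 7.69-fold, and 2.92 relative to the batch.

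The paralog IMD3 stood at 0.70, against 0.05 in the URA2 strain and -0.17 in the AAH1 strain, and was the fourth highest of 328 strains after the deletions of VIP1, GCR2 and YNL198C. Its difference was 0.94 and that of IMD4 was 0.25. Of the 50-base windows of these genes, 33.7% in IMD2, 16.6% in IMD3 and 7.24% in IMD4 occur elsewhere, so reads may be divided between paralogs and the order within the family is uncertain. GUA1, GMP synthase, was at 0.08, and at -0.076 relative to the batch. On the AMP side, ADE12, adenylosuccinate synthetase, was at 0.44, adenylate kinase (ADK1) at 0.33 and adenosine kinase (ADO1) at 0.38. With batch as a term of the fit and strains centred, these became 0.27, 0.13 and 0.19. All 8 genes of both branches were above the others, 1 by at least 2-fold, where 1.67% of all genes were; the median was 0.35, the eighth highest of the series.

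Salvage genes ran both ways in the library labelled AMD1. APT1 was at -0.67, the seventh lowest of 328 strains, and HPT1 at -0.54, while PNP1, purine nucleoside phosphorylase, was at 0.48 and ISN1, which removes phosphate from IMP, at 0.49. Uridine kinase (URK1) was at -0.84 and cytosine deaminase (FCY1) at -0.53, the latter at -0.25 relative to the batch. YNK1 was at 0.76, and the ribonucleotide reductase genes RNR1 and RNR4 were at 0.72 and 0.70, each the eighth highest of 328; RNR1 was at 0.47 with batch as a term and strains centred. Purine synthesis genes ran from -0.11 to 0.52 with a median of 0.03.

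Amino acid genes lay above the other deletions in the library labelled AMD1. All 8 arginine synthesis genes tested were above the others, 5 by at least 2-fold, where 1.67% of all genes were. Their median was 1.15, the seventh highest of 328 strains, against 0.06 over all genes tested. The highest medians were those of the deletions of DAL81 (2.26), FLX1 (1.99) and DEG1 (1.67). ARG1, argininosuccinate synthetase, stood at 1.77, against -0.15 in the URA2 strain and 0.19 in the AAH1 strain, a difference of 2.37 and the seventh highest of 327. ARG4, argininosuccinate lyase, stood at 1.58, against -0.37 and 0.15, a difference of 1.33. ARG5_6 was at 1.37, ARG7 at 1.28 and the mitochondrial ornithine carrier gene ORT1 at 1.02. CPA1 was at 0.34.

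Histidine genes were in part high relative to the other deletions. HIS4 stood at 0.31, against -1.05 in the URA2 strain and -2.29 in the AAH1 strain, a difference of 1.65 and the fifth highest of 328 strains. HIS5 was at a difference of 1.06, HIS3 at 0.70 and HIS2 at 0.59, while HIS1 was at -0.29 and HIS6 at -0.15. Against wild type, HIS5 stood at -0.48 and HIS3 at -0.53, so both lay below wild type. The list median was 0.59, the 20th highest. Of 47 further amino acid synthesis genes 38 were above the others, 3 by at least 2-fold, where 1.67% of all genes were. Their median was 0.33, the 19th highest, against 0.06 over all genes tested. PCL5, a cyclin gene that Gcn4 induces, was at 1.58, the fifth highest of 328, SNZ1, a vitamin B6 gene, at 2.09 and TMT1 at 2.01. GCN4 mRNA was at 0.24. Gcn4 is controlled mainly through translation, and its part in these values was not tested.

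Ribosome biogenesis genes ran lower in the library labelled AMD1. Of 82 tested, 66 were below the other deletions and 1 by at least 2-fold, where 1.6% of all genes were; the median was -0.27, the 30th lowest, and -0.16 relative to the batch. That gene was UTP6, at -1.88, which was at 0.21 relative to its batch. Several of the lowest values of this library reversed in the same way: YMR290W-A from -1.79 to 0.87, YKR040C from -1.71 to 0.68 and YOR333C from -1.69 to 0.13. TAR1 moved from -2.61 to -0.07 and YLR154C-G from -2.11 to -0.09. PMP2 at -2.21, RKM3 at -2.20 and SWI3 at -1.89 remained at -1.51, -1.26 and -1.19.

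Stress genes lay higher in the same library. Of 40 tested, 38 were above the other deletions, 4 of them by at least 2-fold, where 1.67% of all genes were. Their median was 0.50, the 42nd highest of 328 strains, and 0.60 relative to the batch. The median over all genes tested was 0.06. GLC3 was at 1.26, TPS1 at 0.93 and HSP26 at 0.91, while SPI1 was at -0.53, and at -0.27 relative to the batch.

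**Figure D4:**
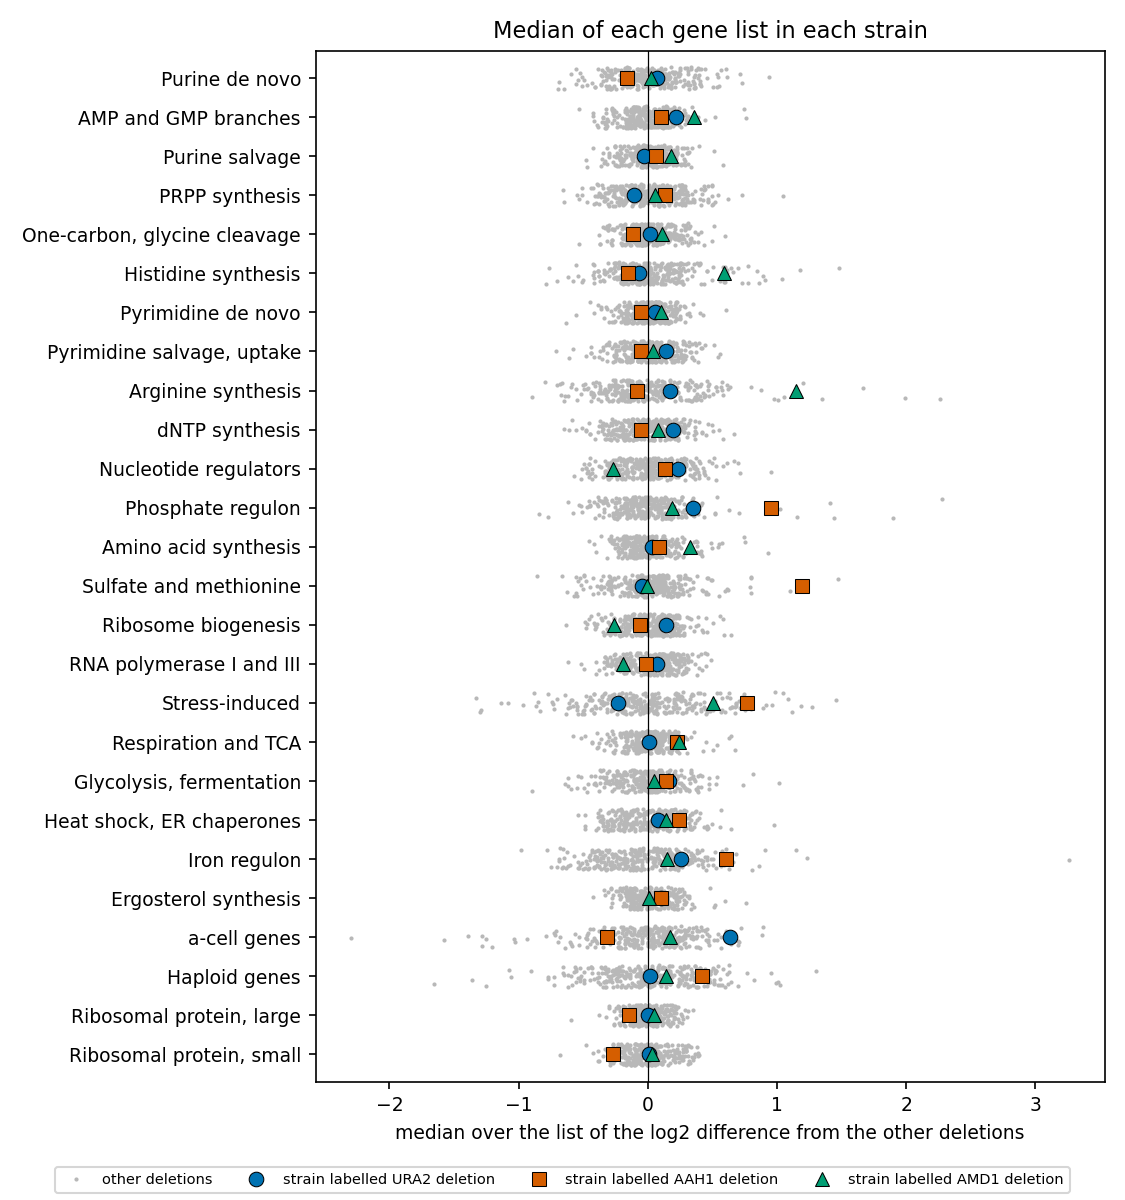
Median over each gene list of the log2 difference from the other deletions (x axis) in each of the 328 strains, with the strain's own deleted gene left out for the 3 marked strains. The AAH1 strain stands at 1.19 for sulfate and methionine genes and 0.95 for phosphate genes, and the library labelled AMD1 at 1.15 for arginine genes.

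The strains were also compared as a class and with each other. Taken as a class against the other deletions, 0 of 4499 genes passed (limma), with 2.93% at an unadjusted p under 0.05, and the class had no passing gene without any of its strains in turn. The smallest p belonged to HAP3, named after its value was seen, at -0.81 ± 0.23 (SE; unadjusted p 0.000551). Its values of -1.43, 0.05 and -1.05 in the strains labelled URA2, AAH1 and AMD1 show that the class was not uniform. URA8, a CTP synthase gene, was above the others in all 3, at 0.38, 0.66 (0.39 relative to its batch) and 0.49. This was not particular to URA8, as YNK1 (0.07, 0.53 and 0.76) and IMD4 (0.41, 0.26 and 0.25) were above as well. The share of all genes above in all 3 was not counted.

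The URA2 strain against the mean of the AAH1 strain and the library labelled AMD1 also gave 0 of 4347 genes, with 3.5% at the unadjusted level. Both direct contrasts, this one and the one below, also hold differences of batch and deposited table. The libraries labelled URA2, AAH1 and AMD1 lie in batches 2, 4 and 1, and only that of AAH1 is in the second table. A further limit is that AMD1 mRNA goes against the label of its library. By its labels the URA2 contrast sets a pyrimidine enzyme against purine enzymes. There URA1 was at -1.04 ± 0.49 (SE; unadjusted limma p 0.0342) and URA4 at -0.87 ± 0.43 (p 0.0441). Between the AAH1 strain and the library labelled AMD1, 0 of 4419 genes passed, with 2.4% at the unadjusted level. The smallest p was that of IMD2, at -3.47 ± 1.02 (SE; unadjusted limma p 0.000774, adjusted 0.9995). HIS4 at -2.61 and HIS5 at -1.99 lay in this direction and MET3 at 2.61 in the opposite one, and none of them passed.

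Depth per library is unknown, so no counting interval is given, and each strain's value carries no replicate error of its own.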

How the data were processed

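PolyA RNA of 328 deletion strains was sequenced, 1 library each. The deposited values are relative to wild type, per the series design, and lie on both sides of 0. They were taken as log2 ratios: the base is not written, but the largest whole-chromosome median shift, 0.904, exceeds what a doubling gives in natural (0.693) or decimal (0.301) logarithms. Reads were aligned with Bowtie, per the submitters' processing notes; the sources used here do not give its version, the build, the counting or the scaling. Depth is unknown. The second deposited table (73 strains, 6698 rows, including AAH1) has no gene column and was matched by position to the first (255 strains, 6701 rows): gene means correlated at 0.979, and at 0.0463 or less at other offsets.

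The test covered 4499 genes, each measured in 80% of strains or more. The fit (limma 3.58.1, R 4.3.3, two-sided, Benjamini-Hochberg over all genes, threshold 0.05) took each strain as a group of 1, with the spread of the 325 others. Each single library was assumed to vary like them. The fit was tested on simulated data. Library batches were a Gaussian mixture of 4 on 4 principal components (scikit-learn 1.9.0; 80, 73, 96 and 79 strains), found from the data. Coordinates and sequences are from R64, matched by gene name (4422 genes). The printed stretches end 101 bases before the open reading frame.

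The rule for named genes asked for those past the threshold, up to 10 each way per strain, without the deleted gene and genes within 5 open reading frames of it, plus members of the nucleotide lists. Since AAH1 alone passed, a difference of at least 2-fold replaced the threshold after the data were seen, and some list members were named after their values were seen. Members and lists were chosen with earlier results of these data known. Alternatives were centring, filters on missing values, batch, moderation, reference strains and the call rule. A gene of the arginine list is not reported here and was left out of its counts and medians.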

Additional observations from a re-analysis of the deposited data

How the results depend on the processing

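Counts of passing genes for the strains labelled URA2 and AMD1, for the class and for URA2 against the others of the class stayed at 0 under every alternative run with a test; leaving out each strain of the class gave 0 to 0. In the AAH1 strain the count was 1, and 2 (0.0446% of genes) with library batch as a term, with or without centring, when MET6 was added; with batch as a term the AAH1 strain against the library labelled AMD1 gave 1 gene (0.0226%), AAH1. The 2-fold rule without a test gave 2.72%, 3.05% and 3.27% of genes in the strains labelled URA2, AAH1 and AMD1, and relative to the batch mean 73 in URA2 and 61 in AAH1.

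Of 953 alternatives run for values of single genes, 942 kept direction and side of the threshold. None of these genes passed in the main fit, so keeping the side of the threshold says little. MET6 in the AAH1 strain, which passed only with batch as a term, is not among them. The other 11 alternatives reversed in direction, all with batch as a term. In the AAH1 strain ADE16 became -0.00124 and RNR1 0.11 (0.12 with centring). In the library labelled AMD1, without and with centring, UTP6 became 0.21 and 0.14, YKR040C 0.68 and 0.61, YMR290W-A 0.87 and 0.80, and YOR333C 0.13 and 0.054. Outside these 953, HIS2 and HIS3 in the AAH1 strain and GUA1 in the library labelled AMD1 changed sign relative to the batch mean. The cause was not tested.

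List medians moved by over 1 SD of the other strains in 14 alternatives. Relative to the batch mean, the AAH1 strain had -0.084 for AMP and GMP branches, -0.10 for purine salvage, -0.12 for PRPP synthesis, -0.33 for one-carbon, -0.50 for histidine, -0.12 for amino acid, -0.0053 for chaperone and -0.059 for small subunit ribosomal protein genes, and the library labelled AMD1 -0.039 for purine salvage. With centring, AAH1 had -0.21 for pyrimidine synthesis and -0.30 for large subunit genes. Means in place of medians gave -0.23 for pyrimidine synthesis in URA2, and 0.68 for AMP and GMP branches and -0.16 for pyrimidine salvage in the library labelled AMD1. No paired analysis was possible because each strain has 1 library. For the class and the direct contrasts, the deposited table as a term, chosen after seeing the data, replaced reference strains of 1 table.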
